A study of Mus musculus with 15 samples.

Results

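The 41 genes described here had, on microarrays of mouse embryonic stem (ES) cells, a higher signal late than early after serum in both lines taken to express Srf. Srf encodes serum response factor, a transcription factor. The genes were chosen by measured values: the mean log2 signal of 60 and 180 min had to lie at least 1 above the mean of 10 and 30 min, in E14wt and in E100-/- rescue cells. They also had to lie above the floor of the measurement, 85.0 intensity units, on at least 4 of 15 arrays. Of 6229 genes above the floor that often, 57 met the threshold, and 16 of them were left out by name (known immediate-early genes, Id genes and the like), which left 41. The array names 8220 genes in all, and the rest did not reach the floor often enough. The differences in E14wt and rescue cells are therefore a description, and the same contrast was tested in E100-/- cells. The threshold did not use E100-/- values, but the count of arrays above the floor did: H1f2 and Inca1 reached 4 arrays only with 1 E100-/- array each.

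The study followed 3 ES cell lines, taken to differ in Srf genotype. E14wt is the wild-type line. E100-/- is taken to lack Srf on both alleles, and E100-/- rescue to be the same line with Srf restored. The sample names give -/- and rescue but do not name the gene. Each line was stimulated with fetal bovine serum (FBS) and profiled at 0, 10, 30, 60 and 180 min, on 15 Affymetrix MGU74A arrays, 1 for each time in each line. Nothing in the labels gives the construct behind the rescue, whether a line is 1 clone, or the culture before serum. Each phase of a line thus rests on 2 arrays that differ in time. The SE and p-values of the tests of E100-/- cells measure the spread between such arrays, not between independent cultures. That spread was pooled over all 3 lines and adjusted toward that of other genes, so it is not the spread of E100-/- arrays alone. Part of it comes from the E14wt and rescue arrays that chose the genes.

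Serum acts on resting or starved cells through receptors that switch on MAP kinases. Within minutes this induces immediate-early genes such as Fos and Egr1, many of which carry the CArG box, the DNA element bound by SRF. Their products then act on later genes, among them regulators of growth, the cytoskeleton, metabolism and feedback. SRF works with ternary complex factors at immediate-early genes and with MRTF cofactors, which sense actin, at cytoskeletal genes.

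The arrays differed in technical measures. The 2% trimmed mean of the deposited signals ran from 350.5 to 1439 intensity units, and 24.95% to 41.64% of the values on an array lay at or below 0. On E100-/- 30, 60 and 180 min and on rescue 0 and 10 min the latter share was 37.1% to 41.6%, against 24.95% to 30.9% on the other 10 arrays. The 3'/5' ratio of the beta-actin control, which rises as RNA degrades, was 7.53 on E14wt 0 min, 4.22 on rescue 0 min, 3.83 on E100-/- 60 min and 2.94 on E100-/- 0 min, and 0.847 to 2.11 elsewhere. The array has 0 probe sets for Srf, so the genotypes were not checked by it. Of 13 measured ES cell markers, 12 were above the floor on all 15 arrays (Pou5f1, Sox2 and Nanog among them), and Esrrb on 11. Of 11 fibroblast feeder markers 2 (Col1a2 and Mgp) were at the floor on every array, and the summed signal of the 11 was 1071 to 2209 early and 1110 to 1672 late in the Srf-expressing lines, against 1459 to 1573 and 1414 to 2358 in E100-/- cells. The summed signal of 6 measured trophoblast markers was 3253 to 4759 from 10 min on in rescue cells, 761.2 to 1211 in E14wt cells and 199.3 to 1267 in E100-/- cells, and its part in the results was not tested.

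Against 0 min the 41 genes were not generally high, so "serum risers" fits them only from 10 min on. Their median log2 signal in E14wt cells was 8.92 at 0 min, 6.58 at 10 min, 7.64 at 30 min, 8.51 at 60 min and 9.38 at 180 min. In rescue cells it was 9.19, 7.23, 6.41, 8.73 and 8.90 at the same times. The 0 min level therefore resembled the late level in both lines, and the low points were at 10 min and 30 min. The choice of genes required a low early and a high late signal in these lines, but did not use 0 min in that contrast. The E100-/- medians ran 8.27, 8.08, 7.98, 8.61 and 8.50, while the median of all tested genes stayed between 9.60 and 9.66 on every array. The mean of 60 and 180 min lay 1 or more above 0 min for 18 of the 41 genes in E14wt cells (14.8% of all tested genes) and for 10 in rescue cells (9.84% of all). Only Hcn3, Olfr1264, Cnn1, Pde1b and Slc1a4 did so in both. In the E100-/- line 14 did (16.9% of all). The late arrays of E14wt and rescue cells chose the genes, so nothing is read from the excess over all genes in those lines. The 0 min arrays of E14wt and rescue were also those with the highest 3'/5' ratios, and the part of RNA quality in their levels was not tested. At 60 min that ratio was 0.867 and 0.914 in both lines, beside 0.847 and 0.989 at 10 min. At 180 min it was 2.11 in E14wt and 1.42 in rescue cells, above both early arrays of each line (1.30 and 1.14 at 30 min).

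**Figure D1:**
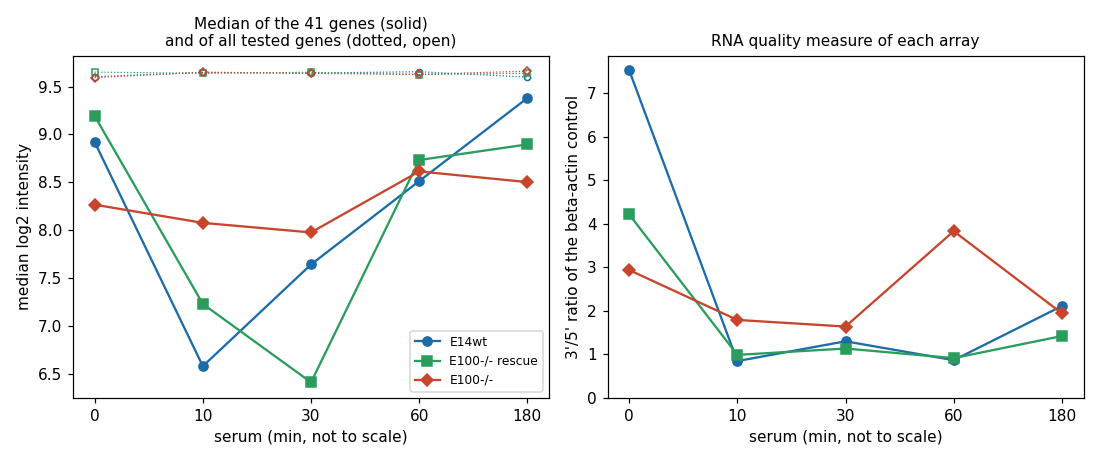
Left, median log2 intensity on each of the 15 arrays (solid lines, filled marks: the 41 genes; dotted lines, open marks: the 6229 tested genes) against serum time in the 3 lines. Right, the 3'/5' ratio of the beta-actin control on the same arrays; the medians of the 41 genes at 0 min (8.92 in E14wt, 9.19 in rescue) stand near those at 180 min, on the arrays with the ratios 7.53 and 4.22.

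The late signal in E100-/- cells was higher than the early one for 29 of the 41 genes, lower for 11 and equal for Osbpl5, which was at the floor on every E100-/- array. The median difference was 0.66 on the log2 scale, against -0.01 over all tested genes, and it ran from -2.54 for Adam11 to 2.33 for Slc30a1. Of all tested genes 47.1% had a positive difference. Of the 41 genes, 11 (26.8%) differed by 1 or more, the threshold used for the other lines, where 4.72% of all tested genes did. The 11 were Slc30a1, Rassf1, Slc1a4, Clk3, Tex264, Snrp1c-ps2, H1f2, Slc22a21, Taf1d, Ptafr and F12. H1f2 was admitted by the same E100-/- array that carries its difference, and with the floor filter on E14wt and rescue arrays alone 10 of 39 genes (25.6%) reached 1, against 4.26% of 5917 tested genes. Slc30a1, Rassf1, Clk3, Taf1d and Slc22a21 stayed at 1 or more whichever of the 4 E100-/- arrays was left out. The other 6 did not: the lowest values were 0.64 for Slc1a4, 0.35 for Ptafr, 0.13 for Tex264, 0.08 for F12, 0 for H1f2 and -0.11 for Snrp1c-ps2. Another 4 (9.76%) lay at -1 or less, Adam11, Elovl1, Ccrl2 and Tcf25, against 5.41% of all. Of these 4 only Adam11 stayed at -1 or less whichever array was left out (-3.01 to -2.08), and Ccrl2 ran from -2.32 to 0, Tcf25 from -2.02 to -0.09 and Elovl1 from -3.44 to 0.62. The genes were dim, with a median geometric mean of 278 intensity units against 729 for all tested genes. Among 1281 tested genes within the quartiles of their mean signal, 8.82% differed by 1 or more and 14.1% by -1 or less in E100-/- cells.

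No gene of the 41 passed the test in E100-/- cells. In limma's test, with Benjamini-Hochberg adjustment over 6229 genes, 0 of the 41 and 0 of all genes (0%) had an adjusted p under 0.05. At an unadjusted p under 0.05 there were 5 of the 41 (12.2%) and 341 of all genes (5.47%). These were Taf1d, Slc30a1, Clk3 and Rassf1, all higher late (2.97% of all genes were), and Adam11, lower late (2.5% of all). Both late arrays lay above both early arrays for 10 of the 41 (24.4%) in E100-/- cells, where 14.2% of all tested genes did. Both lay below for Pde1b and Adam11 (15.4% of all), and for 29 the arrays overlapped. Without the E100-/- 180 min array, 18 of the 41 differed by 1 or more, and without the 60 min array, with its 3'/5' ratio of 3.83, 13 did. The share of all tested genes was not counted for either setting, so no excess is read from these counts. Against 30 min alone, an array with a like share of values at or below 0, 12 did (5.44% of all), 8 of them among the 11. Whether E100-/- cells differ from the other lines in this contrast was not tested, because the choice of genes fixed the other side of the difference.

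**Figure D2:**
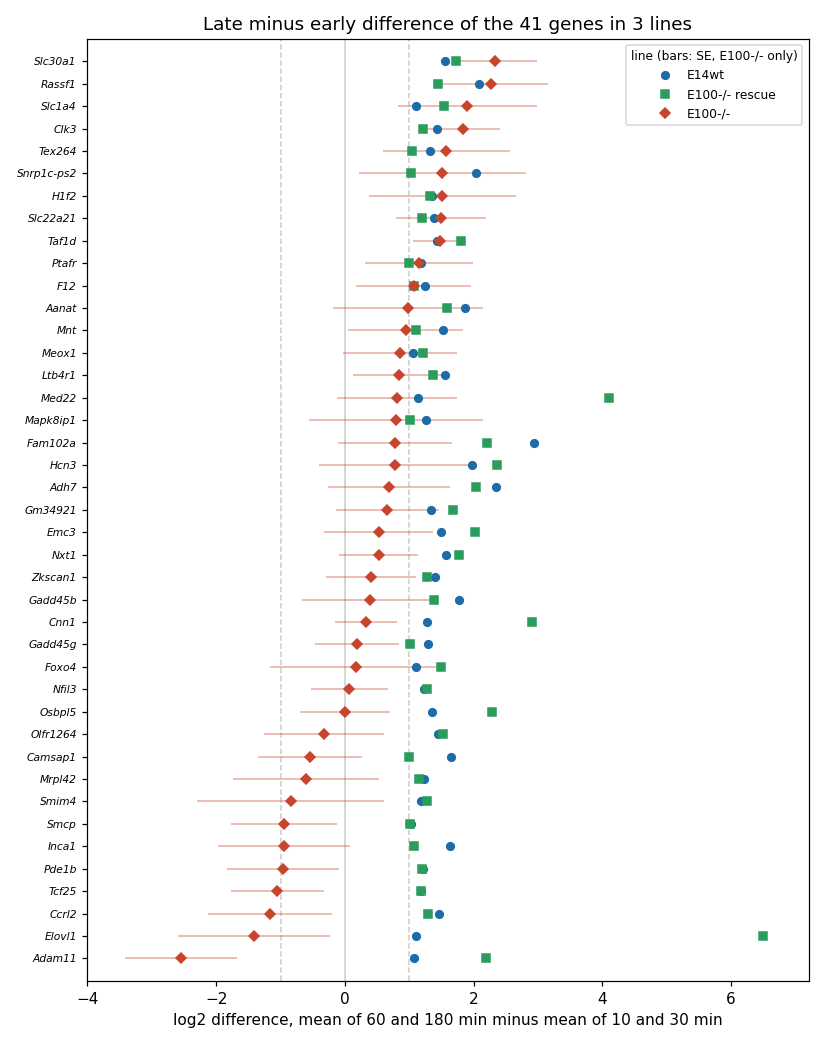
Difference between the mean of 60 and 180 min and the mean of 10 and 30 min on the log2 scale (x axis) for each of the 41 genes (y axis) in E14wt (circles), E100-/- rescue (squares) and E100-/- cells (diamonds, bars give the SE of the fit). The choice of genes put circles and squares at 1 or more, while the diamonds run from -2.54 to 2.33, with 11 at 1 or more.

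**Figure D3:**
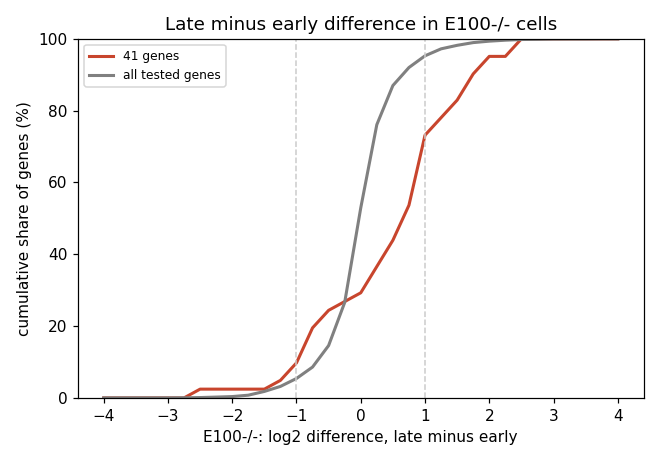
Cumulative share of genes (y axis, %) against the difference between late and early signal in E100-/- cells (x axis, log2), for the 41 genes and for all 6229 tested genes. The curve of the 41 genes lies to the right above 0, with 26.8% of genes at 1 or more against 4.72%.

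Each series of 5 values in what follows gives the normalized intensity at 0, 10, 30, 60 and 180 min in that order, and "floor" stands for a value at or under 85.0 units. Roles are background knowledge. The groups by role were formed after the genes were seen, so nothing is read from the counts and medians by group. Beside those counts, 26.8% of the 41 and 4.72% of all tested genes were at 1 or more in E100-/- cells.

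A set of 4 genes, Taf1d, Slc30a1, Rassf1 and Clk3, had both late arrays above both early arrays in all 3 lines, each at 1 or more in E100-/- cells. The choice of genes favoured this order in E14wt and rescue cells, where 14 of the 41 had it in both. In E100-/- cells 14.2% of all tested genes had it, and the share of all genes with it in all 3 lines was not counted. Taf1d encodes a subunit of the SL1 complex, which recruits RNA polymerase I to ribosomal RNA genes. Its signal was 3542, 2659.5, 4043, 5679 and 13683 in E14wt cells and 17405, 2100.1, 2416, 5826 and 10617 in rescue cells. For E100-/- cells it was 4261, 3426, 3005, 7742 and 10185. The late values lay above the early ones in every line, and rescue 0 min was the highest array of all. The late minus early difference in E100-/- cells was 1.47 ± 0.40 (SE, 2 arrays per phase, adjusted p = 0.567), beside 1.43 in E14wt and 1.80 in rescue cells. The other probe sets of Taf1d gave 1.50 and 0.99 in E14wt, 1.79 and 2.90 in rescue and 1.45 and 1.73 in E100-/- cells. The probe set used for Taf1d can bind related transcripts by its name ending (f_at), and probe sets of 1 gene are not independent samples.

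Slc30a1 encodes ZnT1, the zinc exporter of the plasma membrane, whose gene is a classical target of the zinc-sensing factor MTF1. It was above the floor on all 15 arrays. Signals were 1127, 190.0, 421, 660.4 and 1053 in E14wt, 1743, 167, 515, 755 and 1239 in rescue and 407, 169, 247, 778 and 1356 in E100-/- cells. The 10 min array was the lowest in every line, and both late arrays stood above both early ones. The difference in E100-/- cells was 2.33 ± 0.65 (SE, 2 arrays per phase, adjusted p = 0.569), the largest of the 41 there, beside 1.56 and 1.72. At 0 min, however, E14wt and rescue cells were as high as at 180 min or higher, while E100-/- cells were below both of their late arrays.

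Rassf1, a Ras-association tumour suppressor gene, read 333, 317, floor, 348 and 1379 in E14wt, 2807, 167, 175, 315 and 691 in rescue and 113, 141, floor, 311 and 899 in E100-/- cells. Its highest value from 10 min on was at 180 min in each line, and the difference in E100-/- cells was 2.27 ± 0.88 (SE, adjusted p = 0.823). Clk3 encodes a kinase of the SR proteins that control splicing. Clk3 gave 484, 95.5, 252, 376 and 465 in E14wt, 1028, 149.9, floor, 194 and 353 in rescue and 328, floor, floor, 289 and 321 in E100-/- cells, where both early arrays were at the floor. Its difference in E100-/- cells was 1.84 ± 0.57 (SE, adjusted p = 0.634), a lower limit because of the floor. Taf1d, Slc30a1 and Rassf1 were the members at 1 or more in E100-/- cells in each of 10 alternative settings tried for this line.

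Promoters of Taf1d and Slc30a1, which lay above the floor on all 15 arrays, and of both Gadd45 genes are shown because the study asks about a DNA-binding factor. Sequences are from RefSeq (GRCm38.p6), 5' to 3' on the gene's strand, and give the 250 bases before the start of the gene. Capitals mark the core of the metal response element (TGCACNC or TGCGCNC on either strand) in Slc30a1 and the E-box CACGTG in Gadd45b and Gadd45g. Taf1d, at chr9:15305964-15306213 on the plus strand, is shown with no capitals. Slc30a1 lies at chr1:191906531-191906780, Gadd45b at chr10:80929841-80930090 and Gadd45g at chr13:51846425-51846674, each on the plus strand.
Taf1d: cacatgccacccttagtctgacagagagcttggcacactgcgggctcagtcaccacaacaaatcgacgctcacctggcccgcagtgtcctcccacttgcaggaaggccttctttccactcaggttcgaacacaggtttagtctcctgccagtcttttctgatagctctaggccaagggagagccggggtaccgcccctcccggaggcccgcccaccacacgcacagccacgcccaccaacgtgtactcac
Slc30a1: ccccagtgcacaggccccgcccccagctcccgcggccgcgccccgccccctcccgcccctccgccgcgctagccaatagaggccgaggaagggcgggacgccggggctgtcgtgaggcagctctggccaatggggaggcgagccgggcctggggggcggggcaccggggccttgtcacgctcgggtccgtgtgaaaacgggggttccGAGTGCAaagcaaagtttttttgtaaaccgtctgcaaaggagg
Gadd45b: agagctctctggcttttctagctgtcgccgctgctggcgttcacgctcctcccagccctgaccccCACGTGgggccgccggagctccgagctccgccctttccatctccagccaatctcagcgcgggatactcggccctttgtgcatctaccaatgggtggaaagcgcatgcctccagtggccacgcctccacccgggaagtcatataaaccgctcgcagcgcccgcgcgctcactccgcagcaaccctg
Gadd45g: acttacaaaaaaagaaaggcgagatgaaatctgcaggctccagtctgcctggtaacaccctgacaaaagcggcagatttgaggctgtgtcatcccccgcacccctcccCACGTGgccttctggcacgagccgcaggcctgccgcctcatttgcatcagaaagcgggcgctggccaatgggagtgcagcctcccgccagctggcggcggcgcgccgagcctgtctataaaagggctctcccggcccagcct

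Of the 41 genes 33 matched the promoter table by symbol. The CArG box was found upstream of 0 of the 33, and in 1.62% of all 27025 genes of the table. The core of the metal response element was found in 13 (39.4%, against 23.8% of all genes), once in Slc30a1, from base -43 to -37, and once in Gadd45g, from base -71 to -65. All motifs were searched on both strands. CCAAT was found in 18 (54.5%, against 37.5%), the E-box in 4 (12.1%, against 6.86%), and TATAAA in 5 (15.2%, against 14.3%). The AP-1 site TGANTCA was found only in Adh7 (7.82% of all genes), and the cAMP response element TGACGTCA in 0 (1.77% of all). The 33 genes have 43 promoters in the table. These are matches of letters in a window of 250 bases, and other sequence was not searched.

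Among 7 genes of the nuclear and RNA machinery, 4 differed by 1 or more in E100-/- cells (Taf1d, Clk3, H1f2 and Snrp1c-ps2), with a median of 1.47. With 1 E100-/- array left out, H1f2 fell as low as 0 and Snrp1c-ps2 as low as -0.11. H1f2, a linker histone gene, was floor, floor, floor, floor and 558 in E14wt, 1431, floor, floor, floor and 525 in rescue and floor, floor, floor, floor and 691 in E100-/- cells. From 10 min on it was above the floor only at 180 min, in all 3 lines, so its differences of 1.36, 1.31 and 1.51 each rest on 1 array. Snrp1c-ps2, by its symbol a pseudogene and therefore of uncertain source, gave 1444, 1002, 106, 1171 and 1508 in E14wt, 1265, floor, floor, floor and 351 in rescue and floor, floor, 802, 1534 and 363 in E100-/- cells. Nxt1, a cofactor of messenger RNA export, gave 346, 149, floor, 296 and 379 in E14wt, floor, 116, 87.9, 257 and 463 in rescue and 653, floor, 131, 269.9 and floor in E100-/- cells. Its late arrays were above the early ones in both Srf-expressing lines, and in E100-/- cells they overlapped (difference 0.52 ± 0.62, SE). Med22, a subunit of Mediator, had differences of 1.13 and 4.11 against 0.81 ± 0.93 in E100-/- cells. Mrpl42, of the mitochondrial ribosome, had 1.23 and 1.15 against -0.60 ± 1.13.

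None of the 6 genes grouped as transcription factors reached 1 in E100-/- cells (median 0.28). Nfil3, a basic leucine zipper repressor of the clock and of immune cells, was above the floor on all 15 arrays. It gave 2179, 230.2, 542, 479.7 and 1426 in E14wt, 1296, 511, 471, 1041 and 1356 in rescue and 2004, 943, 898, 1429.8 and 649 in E100-/- cells. The E100-/- values at 10 and 30 min were above those of the other lines, and 180 min was its lowest E100-/- array, for a difference of 0.07 ± 0.60 (SE). A second probe set of Nfil3, above the floor on 6 arrays, gave 0.46, 0.23 and -0.81 in E14wt, rescue and E100-/- cells. Zkscan1, a zinc finger gene, was above the floor on all arrays and differed by 0.40 ± 0.70 in E100-/- cells, with both late arrays above both early ones. Mnt, the Max partner that opposes Myc, gave 0.94 ± 0.90, the homeobox gene Meox1 0.85 ± 0.88 and the forkhead gene Foxo4 0.17 ± 1.33.

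Tcf25 was one of the 4 at -1 or less. It read 101, floor, floor, 173 and 217 in E14wt, 343, 184, 275, 865 and 300.4 in rescue and floor, 269, 438, 323 and floor in E100-/- cells, where only 180 min was at the floor from 10 min on. Its difference of -1.05 ± 0.72 (SE) therefore rests on 1 array, and its second probe set gave 1.32 in E100-/- cells and -0.70 and -0.14 in E14wt and rescue cells.

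Of 6 genes of growth arrest and signalling, only Rassf1 reached 1 in E100-/- cells (median 0.29). Gadd45b and Gadd45g encode small stress proteins that bind cell-cycle and MAP kinase partners. Gadd45b gave floor, 133, 219.8, 246 and 1375 in E14wt, 656, floor, floor, floor and 584 in rescue and floor, 183, floor, floor and 311 in E100-/- cells. Its highest array was 180 min in E14wt and E100-/- cells, and rescue 0 and 180 min stood above the other rescue arrays. Gadd45g gave 344, 211, 199.7, 365 and 694 in E14wt, 571, 377, 425, 546 and 1187 in rescue and floor, floor, 252, 132 and 209.6 in E100-/- cells. From 10 min on the E100-/- arrays of Gadd45g lay between the floor and 252 units, below every rescue array, and overlapped with E14wt at 10 and 30 min. Late minus early differences in E100-/- cells were 0.38 ± 1.06 for Gadd45b and 0.19 ± 0.66 for Gadd45g (SE, 2 arrays per phase).

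Negative differences in E100-/- cells were also found for Pde1b, a calcium-dependent phosphodiesterase, and Inca1, an inhibitor of cyclin-dependent kinases. Pde1b gave floor, floor, floor, 458 and floor in E14wt, floor, 260.4, floor, 308 and 381 in rescue and 285, 961, 285, 266 and 271 in E100-/- cells, where 10 min was far above the rest. Inca1 gave 710.0, floor, floor, floor and 809.6 in E14wt, floor, floor, floor, floor and 373 in rescue and floor, 317, floor, floor and floor in E100-/- cells, with 1 E100-/- array above the floor. Their differences were -0.96 ± 0.87 and -0.95 ± 1.03 (SE). Mapk8ip1, a scaffold of the JNK pathway, gave 0.79 ± 1.35, with both late arrays above both early ones.

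Among 5 genes of receptors and channels, Ptafr (the receptor of platelet-activating factor) was the one at 1 or more, with 1.15 ± 0.84 in E100-/- cells. That value was -0.69 with arrays scaled to a common median, -0.29 unscaled and -0.76 with the floor at the 35th percentile, and another probe set of Ptafr gave -0.16. Ptafr met the rule in 0 of 5 settings of scaling, floor and probe set. Ccrl2, an atypical chemokine receptor, was 595, 353, floor, 329.6 and 688 in E14wt, 197, floor, 333, 323 and 521 in rescue and 863, 424, floor, floor and floor in E100-/- cells. That line was at the floor from 30 min on, and the difference of -1.16 ± 0.96 (SE) comes from the 10 min array. Ltb4r1, the receptor of leukotriene B4, gave 585, 196, floor, 338 and 419.6 in E14wt, 358, 119, 282, 688 and 328 in rescue and floor, floor, floor, floor and 273 in E100-/- cells, with E100-/- cells above the floor at 180 min only. Hcn3, a pacemaker channel gene, gave floor, 94.0, floor, 1445 and floor in E14wt, 195, 255, floor, 687 and 835 in rescue and 2610.5, floor, 326, 211 and 385 in E100-/- cells. Its E14wt difference of 1.97 rests on the 60 min array, and 0 min was the highest E100-/- array. The olfactory receptor gene Olfr1264 gave 205, floor, 422, 459.9 and 572 in E14wt, floor, floor, 101, 178 and 397 in rescue and floor, 520.3, 359.8, 842 and 142 in E100-/- cells, and its late and early E100-/- arrays overlapped.

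Of 7 genes for transporters and metabolic enzymes 3 reached 1 in E100-/- cells, and both late arrays lay above both early ones for 4 (Slc30a1, Slc1a4, Slc22a21 and Aanat). Slc1a4, a carrier of neutral amino acids, gave floor, floor, 768, 941 and 324 in E14wt, 197, 452, 271, 1086 and 947 in rescue and 159, 537, 93.4, 1137 and 612 in E100-/- cells. Its 60 min array was the highest in each line, and it was 1 of the 5 genes above 0 min in both Srf-expressing lines. The difference in E100-/- cells was 1.90 ± 1.08 (SE), 0.64 without 30 min and 3.16 without 10 min, and that of the carnitine carrier gene Slc22a21 was 1.49 ± 0.70. Adh7, an alcohol dehydrogenase that acts on retinol, gave 348, floor, 283, 751 and 836 in E14wt, 676, 231, floor, 495 and 669 in rescue and floor, floor, 508, 572 and 195 in E100-/- cells, and its E100-/- arrays overlapped. Aanat, an enzyme gene of melatonin synthesis, gave 210.2, floor, 1002, 1159.7 and 966 in E14wt, 1203, 893, 116, 1412 and 653 in rescue and 869, 1004, 382, 1456 and 1023 in E100-/- cells, and its second probe set gave 0, 1.46 and 0.19 as differences in E14wt, rescue and E100-/- cells.

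Elovl1, an elongase of very long fatty acids, had the largest difference in rescue cells, 6.49 with both early arrays at the floor. It gave 1696, 1121, 8789, 6076 and 7537 in E14wt, 8271, floor, floor, 6524 and 8891 in rescue and 5368, 8369, 3513, 8333 and 501 in E100-/- cells. In the latter line 180 min was the lowest array and 60 min among the highest, so the difference of -1.41 ± 1.18 (SE) rests on 1 array. Osbpl5, a lipid transfer gene, was above the floor on 5 arrays, none of them E100-/-.

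Of the remaining 10 genes, Cnn1 is the one with a known link to SRF. It encodes calponin 1, an actin-binding protein of smooth muscle. Signals were 716, 697, 555, 1596 and 1426 in E14wt, floor, 167, floor, 835 and 949 in rescue and floor, 945, 839, 1749 and 714 in E100-/- cells. The rescue line had low early values, and E14wt and E100-/- cells had early values of 555 to 945. The E100-/- array at 60 min was the highest of its line and 180 min lay below both early arrays, for a difference of 0.33 ± 0.48 (SE), beside 1.28 and 2.90.

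Adam11, an ADAM family gene without protease activity, had the most negative E100-/- difference. Its signals were 169, 118, 829.7, 400.1 and 1086 in E14wt, 815, floor, 95.7, 359 and 474 in rescue and floor, 429, 815, floor and 121 in E100-/- cells. Both late E100-/- arrays lay below both early ones, for -2.54 ± 0.87 (SE, adjusted p = 0.729). Tex264, a receptor of endoplasmic reticulum autophagy, gave floor, floor, 404, 422 and 504 in E14wt, 392, floor, 201, 281 and 257 in rescue and 601, 626, floor, 914 and 516 in E100-/- cells, and its E100-/- difference of 1.57 ± 0.99 was measured with the 30 min array at the floor. Fam102a had the largest smaller-of-both difference (2.94 in E14wt, 2.21 in rescue cells) and gave 1063, 117, 107, 694 and 1052 in E14wt, 1242, 395, floor, 484 and 1484 in rescue and 753, 269.8, 1206, 1069.5 and 901 in E100-/- cells. Its E100-/- arrays overlapped, as did those of Emc3, of the endoplasmic reticulum insertion complex, which gave floor, floor, 119, 307 and 261 in E14wt, 585, 95.1, 157, 436 and 556 in rescue and floor, 269, floor, floor and 558 in E100-/- cells. The coagulation factor gene F12 gave in E100-/- cells 1.07 ± 0.89 and the predicted gene Gm34921 0.66 ± 0.80. The microtubule-binding gene Camsap1 gave -0.54 ± 0.81, Smim4 -0.84 ± 1.46 and the sperm mitochondrial gene Smcp -0.95 ± 0.82.

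**Figure D4:**
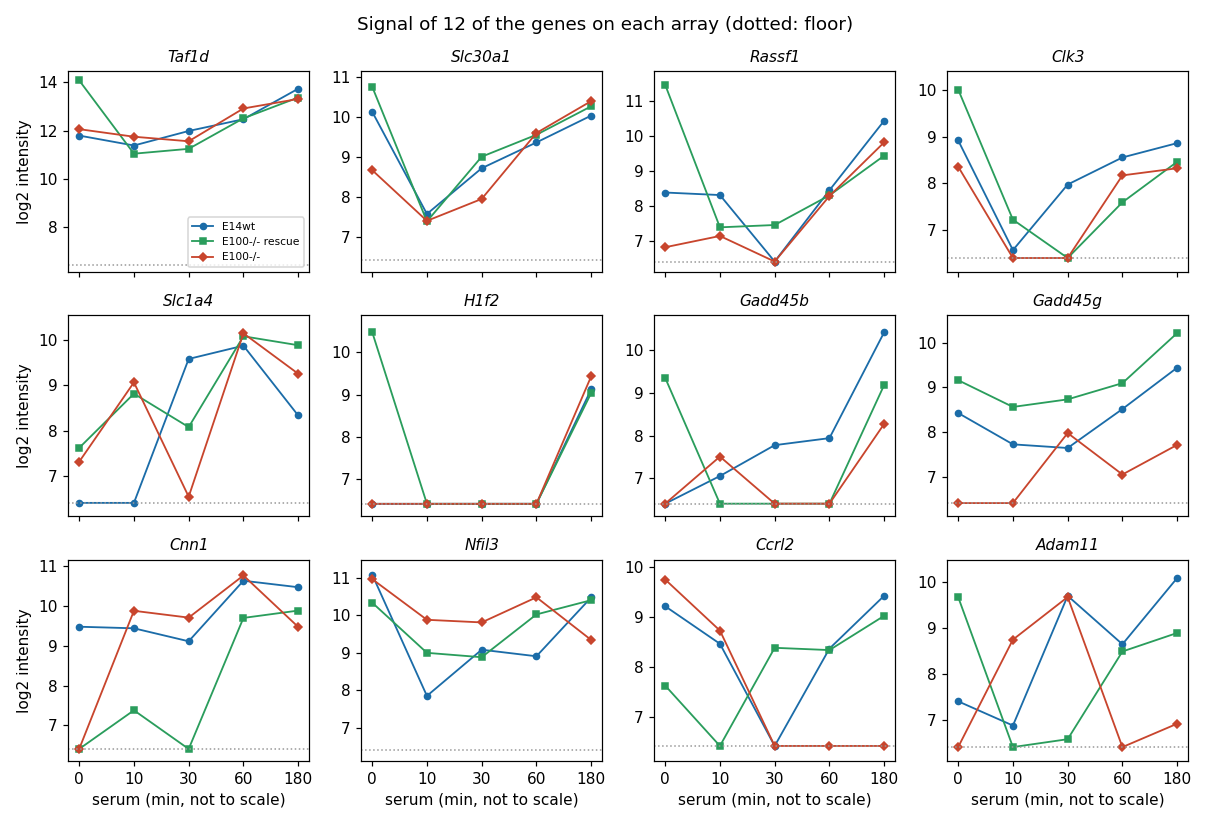
Log2 intensity (y axis) on each array against serum time (x axis, categories) for 12 of the 41 genes in E14wt (circles), E100-/- rescue (squares) and E100-/- cells (diamonds), with the floor as a dotted line. Taf1d, Slc30a1, Rassf1 and Clk3 lie higher at 60 and 180 min than at 10 and 30 min in all 3 lines, whereas Ccrl2 and Adam11 lie at or near the floor late in E100-/- cells.

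The late signal was read at 2 times, on E14wt and rescue arrays that also chose the genes, so what follows is a description and not independent support. For 12 of the 41, H1f2 and Inca1 among them, only 1 late array lay above the floor in E14wt or in rescue cells, and a large difference between both times then follows from the choice. At 180 min the signal lay above 60 min in both Srf-expressing lines for 23 of the 41 (24.3% of all tested genes did) and below it for Aanat, Slc1a4 and F12 (30.6% of all). In limma's test of 180 against 60 min over both lines, 0 of the 41 and 0 of all genes (0%) had an adjusted p under 0.05. Lines stand for the replicates of a time in this test. Its SE and p-values measure how far the lines differ in their course, not the spread between independent cultures. At an unadjusted p under 0.05 there were 6 of the 41 (14.6%), against 861 of all genes (13.8%), a like share. The 6 were H1f2 (2.67 ± 0.31, SE, adjusted p = 0.195), Inca1, Gadd45b (2.63 ± 0.43, adjusted p = 0.225), Taf1d (1.07 ± 0.19, adjusted p = 0.225), Smim4 and Gadd45g (1.02 ± 0.41, adjusted p = 0.351), all higher at 180 min. H1f2 was called with 12 arrays of all 3 lines (2.79 ± 0.30, adjusted p = 0.0161), and H1f2 and Taf1d (1.46 ± 0.26, adjusted p = 0.0336) were called with arrays scaled to a common median. Nothing is read from the calls of H1f2. Its early and 60 min values lay at the floor in all 3 lines and are equal, so they add no spread to the SE. Its 180 min arrays, that of E100-/- cells among them, also helped to bring it over the filter for the floor. For E100-/- cells 180 min was also above 60 min for H1f2 by 3.02, Gadd45b by 1.87, Gadd45g by 0.66 and Taf1d by 0.40. It was not for the rest of the 6: the difference was -3.95 for Smim4, and Inca1 was at the floor at both times.

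The level of E100-/- cells from 10 min on was compared with that of both other lines, whose early and late values chose the genes, so this too is a description. It was higher for 21 and lower for 20 of the 41, with a median difference of 0.09. None was called in limma's test (2.25% of all genes were), and 5 of the 41 (12.2%) had an unadjusted p under 0.05, where 15.9% of all genes did. The 5 were Gadd45g (-1.45 ± 0.40, SE, 4 arrays per line, adjusted p = 0.103), Ltb4r1 (-1.16), Cnn1 (0.83), Med22 (1.48) and Ptafr (1.27). For Cnn1 the mean log2 signal from 10 min on was 9.96 in E100-/-, 9.92 in E14wt and 8.35 in rescue cells. Its difference thus lay almost wholly against rescue cells. Gadd45g was called with arrays scaled to a common median (-2.02 ± 0.39, adjusted p = 0.0229). Without E14wt 30 min Med22 was called, at 1.90, and without E14wt 60 min Osbpl5, at -1.25. The choice of genes required a low early and a high late signal in E14wt and rescue cells, with an early array at the floor in either line for 36 of the 41, and set no such limit for E100-/- cells.

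Of 11 lists of serum and growth pathways, 2 held members. Beside the counts below, 57 of all 6229 tested genes were at 1 or more in both Srf-expressing lines, and 4.72% were in E100-/- cells. In the list of actin cytoskeleton genes of SRF and MRTF, Cnn1 and the excluded Rhob were 2 of 29 tested genes at 1 or more in both Srf-expressing lines. Among E100-/- differences 3 were (Tpm2, Csrp1 and Rhob), and the median difference was 0. In the list of integrated stress and growth arrest, Gadd45b and Gadd45g were 2 of 24, and in E100-/- cells Ddit3 and Herpud1 reached 1. Of 26 tested immediate-early transcription factors, 9 reached 1 in both Srf-expressing lines and 9 in E100-/- cells, 6 of them shared (medians 0.70, 0.54 and 0.42 in E14wt, rescue and E100-/- cells). All of the shared genes are among those left out by name. Ribosome biogenesis (19 tested genes, medians 0.01, 0.09 and 0.09) and cholesterol synthesis and uptake (11 tested genes, medians 0.09, 0.20 and 0) had 0 genes at 1 or more in both Srf-expressing lines. In the test of late against early signal in E100-/- cells 0 genes of any list were called, as of all tested genes. The test of the E100-/- level against both other lines called 2.25% of all tested genes. It called 9 of the 29 actin cytoskeleton genes lower and 0 higher. Of the 26 immediate-early transcription factors it called 3 lower and 1 higher.

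Genes with a late minus early difference of 1 or more were partly shared between lines. Of all tested genes 271 (4.35%) reached 1 in E14wt, 260 (4.17%) in rescue and 294 in E100-/- cells. E14wt and rescue cells shared 57, which is 21% of the E14wt and 21.9% of the rescue genes. E14wt and E100-/- cells shared 59 (21.8% and 20.1%), and rescue and E100-/- cells shared 41 (15.8% and 13.9%). The difference between these shares was not tested.

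The members differed in how their E14wt and rescue arrays met the rule. These counts come from the arrays that chose the genes, so nothing is read from their excess over all genes. Both late arrays lay above both early arrays in E14wt cells for 22 (12% of all tested genes), in rescue cells for 27 (17.5% of all) and in both for 14. Fam102a, Adh7, Nxt1, Slc30a1, Emc3, Rassf1, Olfr1264, Taf1d, Ltb4r1, Cnn1, Clk3, Tcf25, Tex264 and Gadd45g made up the 14. Against rescue 30 min alone, which leaves out the rescue 10 min array with its 37.4% of values at or below 0, 32 of the 41 reached 1 in rescue cells (5.2% of all). With the 0 min arrays counted as early, 11 of the 41 met the threshold in both lines. Taf1d, Slc30a1, Zkscan1 and Nfil3 were above the floor on all 15 arrays and 6 on 8 arrays or fewer, with a median of 11. Just inside the threshold were Ptafr (1.19 in E14wt and 1.001 in rescue cells), Camsap1 (1.65 and 1.002) and Mapk8ip1 (1.26 and 1.01). Just outside were Zfp57 (1.54 and 0.999), 1700073E17Rik (0.99 and 1.02) and Cxcl1 (1.05 and 0.98).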

How the data were processed

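The authors deposited linear intensity values of 12654 probe sets on each array. Which software, background correction and scaling gave them is not stated in the labels, and some values lie below 0. Values were quantile-normalized between arrays, floored at the 40th percentile of all values (85.0, log2 6.41) and log2 was taken, so a positive difference with early arrays at the floor is a lower limit in size, as is a negative one with late arrays there, and a gene at the floor throughout has no known direction. Of the probe sets, 66 are controls, 10276 have 1 symbol, 363 several and 1949 none. Symbols came from the platform annotation, updated through gene identifiers for 10257, and of several probe sets for a gene the one with the highest mean was used. 0 columns of the table were without a sample.

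Models were fitted in R 4.3.3 with limma 3.58.1 and its trended eBayes step. Adjustment was by Benjamini-Hochberg over 6229 genes, a call was an adjusted p under 0.05, and the code was tested on simulated data. The E100-/- response and level came from 1 fit of the 12 arrays from 10 min on, with line by phase as groups (6 residual degrees of freedom). The comparison of 180 with 60 min used the 8 such arrays of E14wt and rescue cells with line and time as terms (3 residual degrees of freedom). Precision is limited by how few arrays there are.

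The members, the lists and the tests were chosen with earlier results of these data known. Values on every array were set to be given for the 12 members with the largest smaller difference, the 6 with the largest and 6 with the smallest E100-/- difference, and members of a list. H1f2 and Nfil3 and the other members were named beyond that rule, after their values were seen, as were the motifs and promoters shown.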

Additional observations from a re-analysis of the deposited data

Results flagged for a closer look

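Among 122 series of 5 arrays of 1 gene in 1 line, 15 had 1 array apart from the other 4, by a gap that takes up most of the range. For repeats of 1 condition without a floor, chance would flag about 1 in 20 groups. That rate does not hold here. The 5 arrays of a group are different times after serum, and values under the floor are equal. The E14wt and rescue arrays also chose the genes. All values here are log2 signals.

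In E14wt cells Hcn3 (10.5) and Pde1b (8.84) and Ptafr (8.50) stood apart at 60 min and H1f2 (9.12) at 180 min, each above the others. F12 (6.41, the floor) and Snrp1c-ps2 (6.72) stood below the others at 30 min. In rescue cells Inca1 (8.54) stood above the others at 180 min and Smcp (8.44) at 60 min, and F12 (6.41) below at 30 min. In E100-/- cells H1f2 (9.43) and Ltb4r1 (8.09) stood above the others at 180 min, and Pde1b (9.91) and Inca1 (8.31) at 10 min. Zkscan1 (8.45) stood below the others at 0 min and Tex264 (6.41) at 30 min.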

How the results depend on the processing

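The E100-/- response gave 0 called members under each of 12 alternatives and on leaving out each of 12 arrays in turn. With the time point as a replicate block it gave 0 of 41 (1 of all genes), and the level 0 of 41 (62 of all genes, against 140 without the block). Called levels were 0 in most settings, 1 with arrays scaled to a common median and 0 to 1 on leaving out 1 array. Members called at 180 against 60 min numbered 2 with that scaling (23 of all genes), 4 with unscaled values (779 of all; H1f2, and lower Foxo4, Hcn3 and Mapk8ip1), 1 with no filter (4 of all; H1f2) and 1 with all 3 lines (H1f2, 1 of all). Nothing is read from the calls of H1f2, whose 60 min values lay at the floor in every line in the main setting. Members at 1 or more in E100-/- cells were 4 with a floor at the 50th percentile, and 12 to 18 without 1 array (18 without 180 min), against 11. The shares of all tested genes in these settings were not counted, so the shifts are not read as a result about the members. The median difference of all 41, 0.66, was 0.18 with the common median, 0.22 with that floor and 0.37 to 0.91 without 1 array.

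Of the 41, 13 met the rule with that floor, 11 with 0 min among the early arrays, 21 with 30 min alone as early, and 23 to 36 without 1 array. The lowest counts were 23 without E14wt 180 min, 25 without E14wt 10 min and 26 without rescue 180 min. Fam102a, Adh7 and Cnn1 met it in 5 settings of scaling, floor and probe set and in the 8 that leave out 1 array. With each array's percentage of values at or below 0 in the model, 5 of all genes had a called level. The settings of 35th percentile, of 30 min alone, of the filter without E100-/- arrays and of the counts meeting the rule were chosen after seeing the data. The planned floor at the 30th percentile was not run, since that value is -10.9. The cause of these shifts was not tested.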

Other observations

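The 16 genes that met the same threshold but were left out by name are set beside the 41 here. In E100-/- cells 12 of the 16 reached 1 and 11 had both late arrays above both early ones, with a median difference of 1.49, against 11 of 41, 10 of 41 and 0.66. The difference between both sets was not tested. Egr1, the zinc finger factor, gave 3.86 in E14wt and 3.35 in rescue cells but -0.10 in E100-/- cells. Fosb (2.21, 1.86 and 0.23), Nr4a1 (2.34, 1.10 and 0.35) and Ccn1 (2.96, 2.79 and 0.60) were the others under 1 in E100-/- cells. Id1 (2.78), Id3 (2.42), Junb (2.19), Ier3 (2.15) and Id2 (2.10) had the largest E100-/- differences of the 16.

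Of the 41 genes 8 had more than 1 probe set, and for Taf1d the additional ones gave differences of the same sign in all 3 lines. Other probe sets of Emc3, Tcf25 and Med22 had the opposite sign in at least 1 Srf-expressing line, and those of Smim4 and 1 of Ptafr were at the floor on every array. Probe sets whose names end in f_at, which can bind several related transcripts, made up 4 of the 41 (Taf1d, Gm34921, Nfil3 and Snrp1c-ps2) and 342 of the 6229 tested genes.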
